A study of Mus musculus with 24 samples.

Results

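The 77 genes described here carry the symbols of mitochondrial ribosomal proteins, 48 named for the large subunit (Mrpl) and 29 for the small subunit (Mrps). Subunits are counted by symbol throughout, and this includes Mrps36, whose product is known from another complex. They were the protein-coding genes whose symbol starts with Mrpl or Mrps and a number and that had at least 240 reads over 24 libraries, out of 55385 genes counted. The rule used no comparison between groups. Of 83 matching symbols, 78 were protein-coding. Mrpl53, whose product is a large subunit protein, had 0 reads in every library and was the protein-coding gene left out. Of its exonic bases, 88.0% overlap another annotated gene on the same strand. The other 5 were processed pseudogenes, 3 of them copies of Mrps36.

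The mitochondrial ribosome translates the mRNAs of mitochondrial DNA, all of which encode subunits of the respiratory chain and ATP synthase. Its ribosomal RNAs come from mitochondrial DNA, whereas all of its proteins are encoded in the nucleus, translated in the cytosol and imported. It carries many proteins with no bacterial counterpart. In skeletal muscle, a tissue rich in mitochondria, its output has to match the nuclear-encoded partners of the same complexes.

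The libraries were bulk RNA-seq of gastrocnemius from uninjured female C57BL/6J mice, 1 library for each mouse and 4 mice in each of 6 groups. Young mice were 3 to 6 months old, old mice 21 to 24 months and oldest-old mice 27 to 29 months. GFP mice received AAV8 carrying eGFP and Klotho (Kl) mice AAV8 carrying secreted, V5-tagged mouse Klotho, a circulating protein whose level declines with age. Both vectors used the liver promoter LP-1 at 3e8 vector genomes per mouse by tail vein, 14 days before tissue collection, so the transgene was not driven in the muscle itself. The groups were young sham, young GFP, old GFP, old Kl, oldest-old GFP and oldest-old Kl. What the young sham mice received is not given in the sources used here.

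Each library held between 36415886 and 59733985 reads assigned to genes, and all 77 members passed the filter on low counts. Levels are in CPM, counts scaled by library size after TMM normalisation. Muscle fibre markers dominated every library, with 12 of 12 markers detected and a summed level of 140139 CPM or more. A few libraries also held RNA of other tissues. The 12 liver markers summed to 958 CPM in old GFP mouse 1, to 105 CPM in old GFP mouse 4 and to 155 CPM in old Kl mouse 4, against at most 39.1 CPM in the other libraries. The 8 keratinocyte markers summed to 122 and 377 CPM in young GFP mice 1 and 3, 139 CPM in young sham mouse 4 and 69.8 CPM in old Kl mouse 2, against at most 24.7 CPM in the others. In bulk muscle, fewer cells of a type and less RNA per cell cannot be told apart. Each test set a difference between groups against a spread between mice estimated in 1 fit of all 24 libraries. That spread was uneven: the mean log2 CPM over members had an SD of 0.013 in old GFP and 0.11 in oldest-old GFP mice.

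The promoter regions of 4 members are shown because these genes had the smallest p-values in the comparison of oldest-old with young mice. Each is the 150 bases before the transcription start annotated by RefSeq (GRCm38.p6), 5′ to 3′ on the gene's own strand, with the matches to any of 4 motifs in capitals. The motifs are those of factors known to act at nuclear genes for mitochondria: the ETS motif bound by GABPA (CCGGAAG), NRF1 (GCGCANGCG), YY1 (AANATGGC) and the GC box bound by SP1 (GGGCGG). Both strands were searched.
Mrpl27, chr11:94653641-94653790, plus strand: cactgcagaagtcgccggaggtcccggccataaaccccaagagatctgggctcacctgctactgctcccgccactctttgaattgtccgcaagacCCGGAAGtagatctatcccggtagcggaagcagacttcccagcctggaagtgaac
Mrpl42, chr10:95501950-95502099, minus strand: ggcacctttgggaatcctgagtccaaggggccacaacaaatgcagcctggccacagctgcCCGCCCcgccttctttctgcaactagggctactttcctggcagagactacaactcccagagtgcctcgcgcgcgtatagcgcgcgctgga
Mrpl51, chr6:125192050-125192199, plus strand: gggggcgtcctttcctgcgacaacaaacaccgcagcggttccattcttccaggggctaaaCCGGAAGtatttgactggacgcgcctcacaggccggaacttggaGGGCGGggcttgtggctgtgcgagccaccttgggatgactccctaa
Mrpl32, chr13:14613038-14613187, minus strand: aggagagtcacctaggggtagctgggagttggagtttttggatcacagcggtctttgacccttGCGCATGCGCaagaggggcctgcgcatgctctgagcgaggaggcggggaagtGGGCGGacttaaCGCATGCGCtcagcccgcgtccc

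In these stretches Mrpl27 held 1 ETS match, at -55 from the start, and Mrpl51 held an ETS match at -90 and a GC box at -46. Mrpl32 held NRF1 matches at -87, -86 and -23, the first 2 overlapping on opposite strands, and a GC box at -35. Mrpl42 held only a GC box, at -90. YY1 matches lay at 9 in Mrpl27, 28 in Mrpl42, 19 in Mrpl51 and -242 in Mrpl32, all outside the letters shown.

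Over all members, 68 of 77 had a promoter sequence of 300 bases, from 250 before to 50 after the start. The YY1 motif was in 21 of the 68 (30.9%), compared with 8.09% of 11286 protein-coding genes tested and 6.23% of 27025 promoters. Most of these 21 had a YY1 match in the 50 bases after the start, inside the transcript. An ETS match was in 24 (35.3%), compared with 16.6% and 9.12%. NRF1 matches were in 16 members (23.5%), compared with 12.5% and 6.47%. The GC box was in 34 (50%), below the 61.6% of tested coding genes and above the 35.9% of all promoters. In 9 members none of the 4 motifs was found, and in 2 members matches of different motifs overlapped. A match to these letters is a description of sequence, not of binding.

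Many members start close to another gene on the opposite strand. Of the 77, 33 (42.9%) had a protein-coding neighbour in a head-to-head arrangement within 1000 bases, compared with 14.3% of 14511 protein-coding genes tested. Mrpl36 starts beside Ndufs6 and Mrpl47 beside Ndufb5, both neighbours being subunits of complex I, and Mrpl43 beside Twnk, the mitochondrial DNA helicase. Mrps12, whose product takes part in decoding, starts 172 bases from Sars2, a mitochondrial seryl-tRNA synthetase. Mrps11 of the small subunit and Mrpl46 of the large subunit start head to head with each other. The stretches before these 2 starts are shown because they share 41 bases, which hold 1 GC box seen from both sides.
Mrps11, chr7:78782981-78783130, plus strand: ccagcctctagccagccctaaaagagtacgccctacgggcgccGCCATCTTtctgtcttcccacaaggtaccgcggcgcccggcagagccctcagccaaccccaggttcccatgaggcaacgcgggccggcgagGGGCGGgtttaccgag
Mrpl46, chr7:78783090-78783239, minus strand: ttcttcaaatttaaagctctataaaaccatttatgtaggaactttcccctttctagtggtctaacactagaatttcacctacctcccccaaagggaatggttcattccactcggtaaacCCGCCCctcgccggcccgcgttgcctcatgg

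Mrps11 and Mrpl46 had similar small differences between oldest-old and young mice. Mrps11 measured 9.13, 9.65, 9.45 and 9.42 CPM in young GFP mice and 9.05, 8.73, 9.90 and 7.35 CPM in oldest-old GFP mice. Mrpl46 measured 14.04, 13.3, 12.4 and 12.6 CPM in young GFP mice and 13.9, 12.5, 12.4 and 10.01 CPM in oldest-old GFP mice. In both genes the groups overlapped, and neither was called, with log2 fold changes of -0.10 ± 0.08 (SE) for Mrps11 and -0.10 ± 0.09 for Mrpl46 (edgeR, adjusted p = 0.413 and 0.505).

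Reads that fall on overlapping genes were not counted for any of them in the column used, which ignores strand. Exons of 32 members overlap another gene, in 2 cases over more than 50% of their length: 77.8% of Mrps34 and 69.8% of Mrps25. In 6 members the strand-specific columns held over 50% more reads than the unstranded column, with 344% more for Mrps34, 282% for Mrpl43, 261% for Mrpl47, 166% for Mrps25, 89.2% for Mrpl24 and 82.6% for Mrps18b. The library was unstranded, so those additional reads cannot be told apart from reads of the partner gene. Values of these 6 are therefore uncertain.

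Levels between members were compared per kilobase of annotated exon. In the large subunit, the highest mean levels over 24 libraries were those of Mrpl42 (46.4 CPM per kb), Mrpl54 (41.5) and Mrpl34 (40.1), and the lowest those of Mrpl33 (2.004), Mrpl19 (2.13) and Mrpl47 (3.11). In the small subunit, Mrps21 stood highest at 75.6 CPM per kb, followed by Mrps23 (33.3) and Mrps28 (33.2), and Mrps35 (1.86), Mrps25 (2.34) and Mrps10 (2.45) stood lowest. Exonic length counts every annotated exon and reaches 8631 bases for Mrps35, which lowers a per-kilobase level where long forms are little used. The Mrpl47 and Mrps25 levels also lack the reads shared with neighbours.

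The summed level of the 77 members was 2386 ± 49.3 CPM (SD, n = 4) in young GFP, 2230 ± 93.0 in young sham, 2254 ± 20.7 in old GFP, 2171 ± 115 in old Kl, 2133 ± 154 in oldest-old GFP and 2277 ± 118 in oldest-old Kl. Young GFP was highest and oldest-old GFP lowest, but each mean, the extremes included, lay within 1 SD of a neighbour, taking the larger SD. The order depended on the scaling. Without TMM normalisation, oldest-old Kl was highest at 2342 ± 133 CPM and old Kl lowest at 2136 ± 90.6. Young GFP then stood at 2293 ± 52.7 and oldest-old GFP at 2190 ± 112. With size factors of DESeq2, the mean log2 CPM over members was again highest in young GFP (4.69) and lowest in oldest-old GFP (4.53). Individual members were even between mice: the SD of log2 CPM over 24 libraries ran from 0.07 (Mrpl23) to 0.24 (Mrps6). Both were named after their values were seen.

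The mean log2 CPM over members gives each mouse 1 value per subunit. For the large subunit, young GFP mice measured 4.85, 4.81, 4.79 and 4.85, old GFP mice 4.75, 4.76, 4.79 and 4.77, and oldest-old GFP mice 4.76, 4.74, 4.73 and 4.52. Every old and oldest-old GFP mouse lay below every young GFP mouse, by a small margin in the closest case. Old Kl mice measured 4.78, 4.60, 4.70 and 4.76, oldest-old Kl mice 4.79, 4.71, 4.89 and 4.75, and young sham mice 4.82, 4.71, 4.69 and 4.74. The sham and Kl groups overlapped the GFP groups of old mice.

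For the small subunit, young GFP mice measured 4.43, 4.41, 4.39 and 4.42, old GFP mice 4.35, 4.36, 4.36 and 4.32, and oldest-old GFP mice 4.35, 4.35, 4.30 and 4.13. The order of the groups was that of the large subunit. Young sham mice measured 4.39, 4.29, 4.29 and 4.34, old Kl mice 4.33, 4.21, 4.28 and 4.33, and oldest-old Kl mice 4.38, 4.31, 4.48 and 4.34. In both subunits oldest-old GFP mouse 4 was the lowest of all 24 mice and oldest-old Kl mouse 3 the highest.

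**Figure D1:**
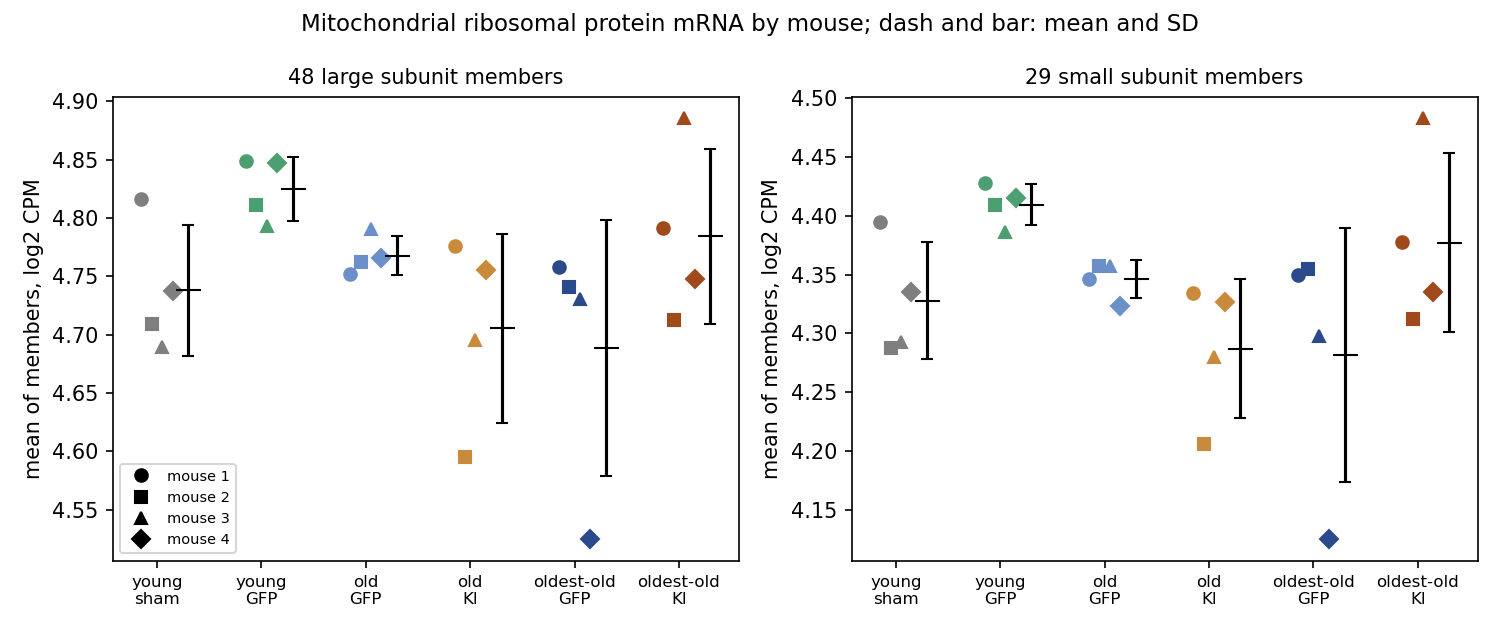
Mean log2 CPM over the 48 large subunit members (left) and the 29 small subunit members (right) for each mouse (symbol) in 6 groups, with the group mean and SD (dash and bar) beside them; the axes do not start at 0. Oldest-old GFP mouse 4 lies lowest in both panels, at 4.52 and 4.13, and oldest-old Kl mouse 3 highest, at 4.89 and 4.48.

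Libraries at the extremes also differed in technical measures and marker lists. Oldest-old GFP mouse 4 had the lowest summed muscle fibre markers (140139 CPM), the lowest share of multimapping reads (9.78%), 657 CPM of the 5 erythroid markers and 543 CPM of the 9 fibroblast and tendon markers. Oldest-old GFP mouse 1 had 603 CPM of erythroid markers, with subunit values of 4.76 and 4.35. Oldest-old Kl mouse 3, at the high extreme, had the lowest fibroblast and tendon sum of all 24 libraries (343 CPM). Its muscle fibre sum was also low (144653 CPM), and its share of multimapping reads was 12.2%. Old Kl mouse 2, the lowest of its group, had 1685 CPM of the 7 adipocyte markers, against 300 to 353 CPM in the other 3. Oldest-old Kl mouse 2, also the lowest of its group, had 1528 CPM, against 225 to 238 CPM. In young sham, mouse 1 had the highest subunit values and 279 CPM of adipocyte markers, against 962 to 1368 CPM in the other 3. The ranges in the remaining groups were 214 to 1015 CPM in young GFP, 352 to 656 in old GFP and 266 to 489 in oldest-old GFP, and no marker of the list was at 0 in any group. The part of these measures in the results was not tested.

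In oldest-old mice, mitochondrial ribosomal protein mRNAs were lower than in young mice, both given the GFP vector. Of 77 members, 20 fell and none rose (edgeR quasi-likelihood test, Benjamini-Hochberg adjusted p under 0.05), 15 of 48 in the large subunit and 5 of 29 in the small. Over all 17803 genes tested, 6.08% were called lower. At unadjusted p under 0.05, 32 members were lower and 0 higher, with 12.9% of all genes lower. The log2 fold change was below 0 for 70 of 77, with a median of -0.12 (8.0% lower), -0.13 in the large subunit and -0.11 in the small, compared with 0.027 over all genes. In 23 members every oldest-old mouse lay below every young mouse, compared with 8% of all genes.

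Mrpl27, a large subunit protein with a bacterial counterpart near the peptidyl transferase centre, had the smallest p. It measured 15.5, 14.9, 13.3 and 13.96 CPM in young GFP mice and 11.9, 12.1, 12.3 and 10.9 CPM in oldest-old GFP mice. The groups did not overlap, and the log2 fold change was -0.29 ± 0.06 (SE, adjusted p = 0.00244, edgeR). It was also called against young sham mice, which measured 14.6, 13.5, 13.7 and 14.1 CPM (log2 fold change -0.25, adjusted p = 0.00958, edgeR). The comparison with sham was added after seeing the data.

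Mrpl42, a protein of the large subunit with no bacterial counterpart, was the most abundant member in CPM and changed most. Young GFP mice measured 211, 199.6, 189.7 and 204 CPM, and oldest-old GFP mice 161, 166, 152 and 116 CPM. All oldest-old mice were lower, with mouse 4 lowest, and the log2 fold change was -0.43 ± 0.09 (adjusted p = 0.00273, edgeR). Without mouse 4 it was -0.35 (adjusted p = 0.00441, edgeR). It was the one member called with both tools, under each change of scaling, filter, strand, groups and block tried at first, and in every fit without 1 library.

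Mrpl51, also specific to the mitochondrial ribosome, measured 89.7, 90.6, 89.2 and 95.0 CPM in young GFP mice and 73.4, 83.0, 75.2 and 58.7 CPM in oldest-old GFP mice. The groups did not overlap (log2 fold change -0.33 ± 0.08, adjusted p = 0.0101, edgeR). Mrpl32, a large subunit protein that matures only after cleavage by the m-AAA protease, measured 25.9, 25.6, 25.2 and 23.7 CPM and 21.3, 22.5, 22.3 and 21.7 CPM in the same groups. Here oldest-old mouse 4 was not the lowest, and the log2 fold change was -0.19 ± 0.05 (adjusted p = 0.0112, edgeR).

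Mrpl18, the counterpart of the bacterial protein that binds 5S rRNA, measured 39.3, 34.4, 34.2 and 37.1 CPM in young GFP mice and 31.0, 33.1, 30.8 and 24.8 CPM in oldest-old GFP mice. Its log2 fold change was -0.28 ± 0.07 (adjusted p = 0.0149, edgeR). Mrpl20, Mrpl4, Mrpl36 and Mrpl44 of the large subunit fell by 0.19, 0.25, 0.24 and 0.19 on the log2 scale, and Mrpl50, Mrpl37 and Mrpl12 by 0.20, 0.22 and 0.26. Mrpl12 forms the flexible stalk of the large subunit and has been described as a partner of the mitochondrial RNA polymerase. Of the other stalk proteins, Mrpl11 fell by 0.20 (adjusted p = 0.0361, edgeR), and Mrpl10 had a log2 fold change of -0.03 (adjusted p = 0.805, edgeR).

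In the small subunit, Mrps36 had the smallest p. It measured 23.8, 21.9, 23.3 and 26.0 CPM in young GFP mice and 20.02, 19.6, 19.2 and 14.02 CPM in oldest-old GFP mice (log2 fold change -0.38 ± 0.10, adjusted p = 0.0166, edgeR). The groups did not overlap, and mouse 4 was lowest. Despite its name, the Mrps36 product is known as a component of the 2-oxoglutarate dehydrogenase complex rather than of the mitochondrial ribosome, although it is counted by its symbol among the 29 and among the 5 called, and its 3 pseudogenes may share its reads.

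Mrps15, Mrps21, Mrps28 and Mrps24 also fell, by 0.22, 0.22, 0.21 and 0.12 on the log2 scale. The 3 Mrps18 paralogs, of which Mrps18a sits in the large subunit despite its symbol, were not called. Log2 fold changes were -0.15 for Mrps18a, 0.03 for Mrps18b and -0.27 for Mrps18c (adjusted p = 0.129, 0.877 and 0.0564, edgeR). Mrps12 of the decoding site and Mrps2 were not called either, at -0.05 and -0.03. Mrpl58, a peptidyl-tRNA hydrolase that releases peptides from stalled mitochondrial ribosomes, was at -0.14 (adjusted p = 0.171, edgeR).

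**Figure D2:**
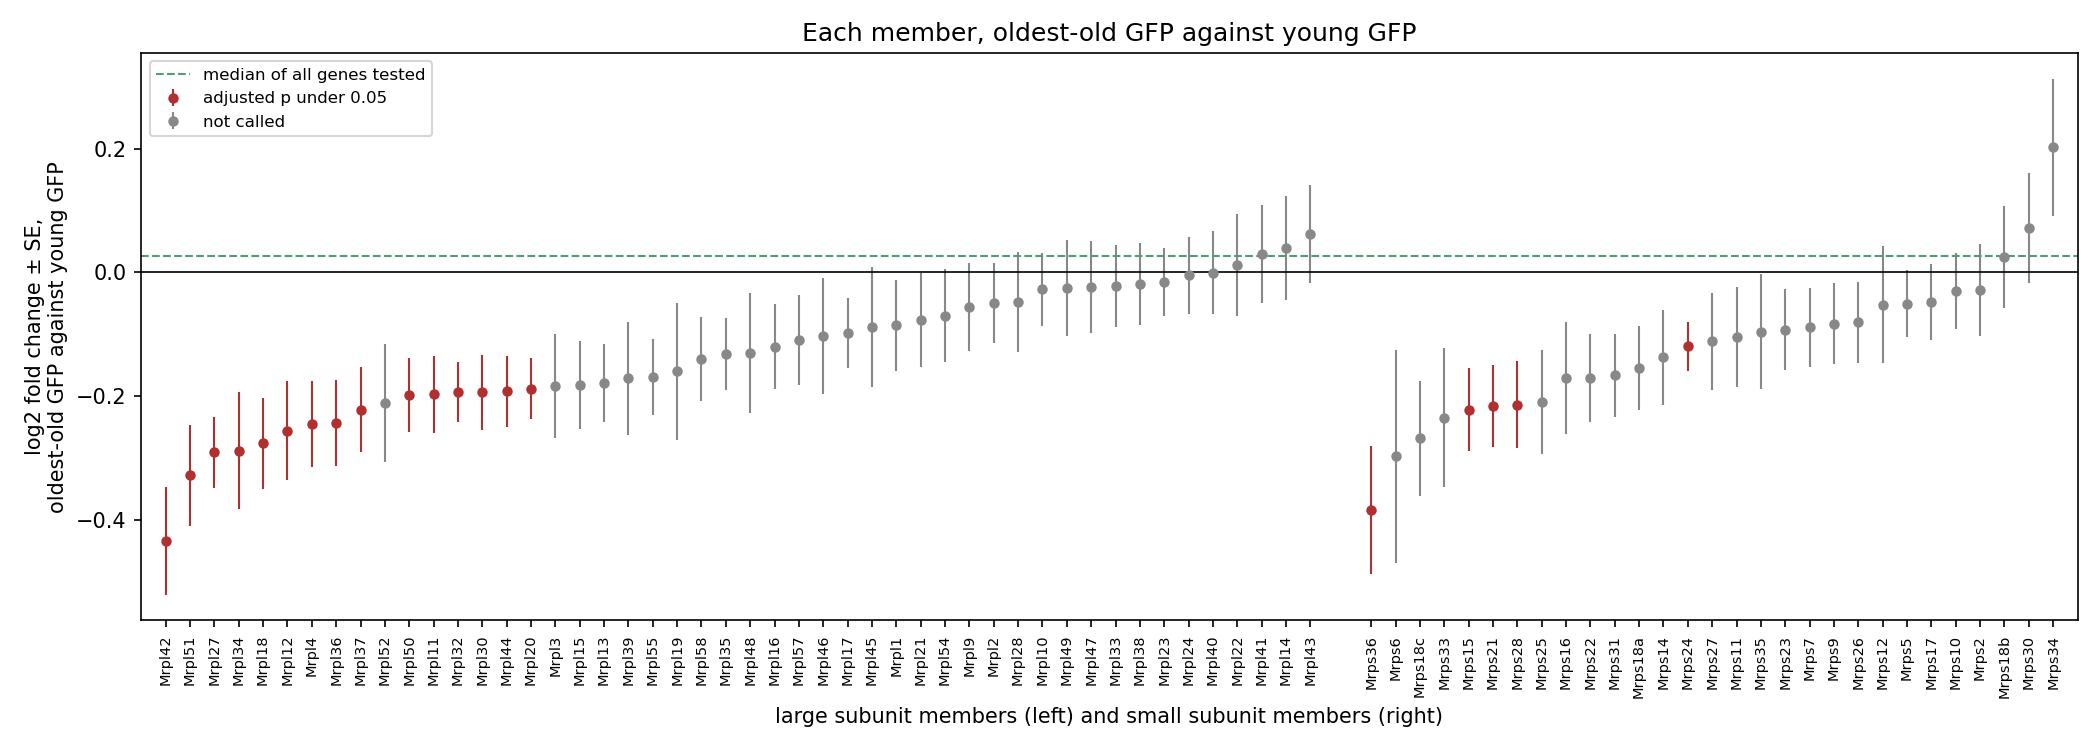
Log2 fold change (point) and SE (line) of each of the 77 members in oldest-old GFP against young GFP mice, large subunit left and small subunit right, each sorted by size; red marks adjusted p under 0.05 and the dashed line the median of all genes tested. The 20 red points are all below 0, from Mrpl42 at -0.43 to Mrps24 at -0.12, and Mrps34 lies highest at 0.20.

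The number of calls rested on single libraries. It was 8 without oldest-old GFP mouse 4, 8 without young GFP mouse 4, 9 without young GFP mouse 1 and 13 without young GFP mouse 2. Over all genes, in either direction, these fits called 1815 of 18171, 1674 of 18261, 1704 of 18242 and 2093 of 18251. With all 24 libraries it was 2649 of 17803. All 20 members stayed below 0 under every alternative run, but they had been picked as lower in these same libraries. The value nearest 0 was -0.016, for Mrps24 with young sham as the young group. Of the 20, Mrpl27, Mrpl42, Mrpl51, Mrpl32 and Mrpl20, 5 in all, were called in each of 8 fits without 1 library. With young sham in place of young GFP as the young group, 1 member (Mrpl27) was called and the median was -0.039. In that comparison 2064 of 17803 genes were called in either direction, and the median of all genes was -0.012. Without the 2 young GFP libraries of high keratinocyte RNA, 4 were called and the median was -0.16, while 874 of 18620 genes were called. Fitted on the 2 compared groups alone, 2 were called.

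In old mice the difference from young mice was smaller. Against young GFP, 1 member fell, Mrpl27 (log2 fold change -0.27 ± 0.06, adjusted p = 0.0104, edgeR), while 1.49% of all genes were called lower. Old GFP mice measured 12.1, 12.2, 12.3 and 11.2 CPM of Mrpl27, all below the 4 young GFP mice. At unadjusted p under 0.05, 8 members were lower and 1 higher, with 8.25% of all genes lower. The median was -0.054, -0.047 in the large and -0.068 in the small subunit, compared with 0.002 over all genes. In 15 members the groups did not overlap with old mice lower, compared with 6.91% of all genes.

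Other members with small p in old mice did not pass the adjustment. Mrpl42 measured 169, 159, 166 and 182 CPM in old GFP mice, all below young GFP (log2 fold change -0.25, adjusted p = 0.110, edgeR). Mrps36 measured 19.8, 21.5, 17.5 and 19.8 CPM, also all below (-0.27, adjusted p = 0.140, edgeR). Mrps5 was at -0.14 (adjusted p = 0.161, edgeR). The member with a positive value, Mrps34, measured 7.86, 7.16, 7.64 and 6.18 CPM in old and 6.72, 6.54, 5.41 and 5.24 CPM in young GFP mice, which overlapped (0.27, adjusted p = 0.177, edgeR). The groups did not overlap in either age comparison with young GFP for Mrpl11, Mrpl27, Mrpl34, Mrpl42, Mrpl44, Mrpl51, Mrps15, Mrps18a and Mrps36, and both comparisons use the same young mice. With young sham as the young group the median in old mice was 0.013, so its direction depended on the young group used.

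Between old and oldest-old GFP mice no member was called by edgeR or DESeq2, and 0% of all genes were called lower by edgeR. DESeq2 called 126 of 36942 genes in either direction. At unadjusted p under 0.05, 9 members were lower by edgeR and 11 by DESeq2, with 5.27% of all genes lower by edgeR. The median was -0.076 and 64 of 77 members were below 0. Mrpl18 had the smallest p and the largest difference, with 33.9, 32.4, 35.8 and 37.1 CPM in old GFP mice (log2 fold change -0.22, adjusted p = 0.278, edgeR). Mrps22 measured 14.03, 14.3, 14.6 and 13.9 CPM in old and 13.5, 13.004, 12.7 and 10.2 CPM in oldest-old GFP mice and did not overlap (-0.20, adjusted p = 0.299, edgeR). Without oldest-old GFP mouse 4 the median was -0.020 and 2 members were at unadjusted p under 0.05, as were 2 when the compared groups were fitted alone.

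Klotho gene delivery was compared with GFP within each age. In old mice no member was called by edgeR or DESeq2, as for 0% of all genes with edgeR. At unadjusted p under 0.05, 6 members were lower by edgeR and 4 by DESeq2, with 0.977% of all genes lower by edgeR. The median was -0.053, -0.052 in the large and -0.059 in the small subunit, and 64 of 77 members were below 0. Without old Kl mouse 2 the median was -0.025 and 2 members were at unadjusted p under 0.05.

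Mrps24, a small subunit protein, had the smallest p in old mice. It measured 25.5, 25.3, 25.6 and 25.6 CPM in old Kl and 28.5, 28.2, 27.4 and 27.01 CPM in old GFP mice. The groups did not overlap, but the difference did not pass the adjustment (log2 fold change -0.13 ± 0.04, adjusted p = 0.9998, edgeR). Mrps34 differed most, at 6.48, 4.84, 5.89 and 5.69 CPM in old Kl mice (-0.33 ± 0.11, adjusted p = 0.9998, edgeR), and overlapped. Mrpl35, Mrpl58 and Mrpl55 were at -0.13, -0.16 and -0.13.

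In oldest-old mice the values pointed the other way. No member was called by edgeR or DESeq2, compared with 0.0112% of all genes by edgeR in either direction. At unadjusted p under 0.05, 16 members were higher in Kl mice by edgeR and 17 by DESeq2, with 4.06% of all genes higher by edgeR. Fitted on the 2 compared groups alone, 1 member was. The median was 0.10 (7.3% higher), 0.11 in the large and 0.088 in the small subunit, compared with 0.012 over all genes, and 67 of 77 members were above 0. It fell to 0.045 without oldest-old GFP mouse 4, where 3 members remained at unadjusted p under 0.05, and to 0.066 without oldest-old Kl mouse 3, where 5 did.

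Mrps22 measured 13.8, 14.2, 15.2 and 14.5 CPM in oldest-old Kl mice, all above the oldest-old GFP mice (log2 fold change 0.23 ± 0.07, adjusted p = 0.420, edgeR). Mrpl34 measured 25.3, 26.0, 29.3 and 23.5 CPM in oldest-old Kl and 24.98, 22.002, 23.2 and 15.9 CPM in oldest-old GFP mice, which overlapped (0.28 ± 0.09, adjusted p = 0.490, edgeR). Mrps24 measured 29.2, 28.5, 28.6 and 27.9 CPM in Kl and 26.1, 27.2, 27.2 and 26.0 CPM in GFP mice and did not overlap (0.10 ± 0.04, adjusted p = 0.548, edgeR). Mrpl10 and Mrpl57 were at 0.15 and 0.19.

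The difference between the Klotho effects at the 2 ages was itself tested. No member was called by edgeR or DESeq2, compared with 0.00562% of all genes by edgeR in either direction. At unadjusted p under 0.05, 15 members were higher in oldest-old than in old mice by edgeR and 18 by DESeq2, with 2.7% of all genes higher by edgeR. The median difference was 0.15 and 74 of 77 members were above 0, compared with a median of 0.00013 over all genes. Mrps24 had the smallest p (0.23 ± 0.06, adjusted p = 0.810, edgeR) and Mrpl34 the largest difference (0.37 ± 0.13). Mrpl58 was at 0.29 and Mrpl57 at 0.31. Without oldest-old GFP mouse 4 the median was 0.099 and 8 members were at unadjusted p under 0.05, and 8 were without oldest-old Kl mouse 3.

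Young GFP mice were also compared with young sham mice. No member was called by edgeR or DESeq2, compared with 0.472% of all genes by edgeR in either direction. By edgeR 11 members, and by DESeq2 19, were higher in GFP mice at unadjusted p under 0.05, with 4.8% of all genes higher by edgeR. The median was 0.087, compared with -0.025 over all genes, and 70 of 77 members were above 0. Mrpl14, of the large subunit, differed most: 23.5, 24.5, 23.9 and 25.6 CPM in young GFP against 21.2, 20.7, 20.003 and 21.9 CPM in young sham mice, with no overlap (0.22 ± 0.08, adjusted p = 0.267, edgeR). Mrpl13 had the smallest p (0.18, adjusted p = 0.228, edgeR). The number at unadjusted p under 0.05 was 32 without young sham mouse 1, where the median was 0.15, and 5 without young sham mouse 2 or mouse 3. With library size alone it was 0, the median was 0.0030 and 44 members were above 0.

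**Figure D3:**
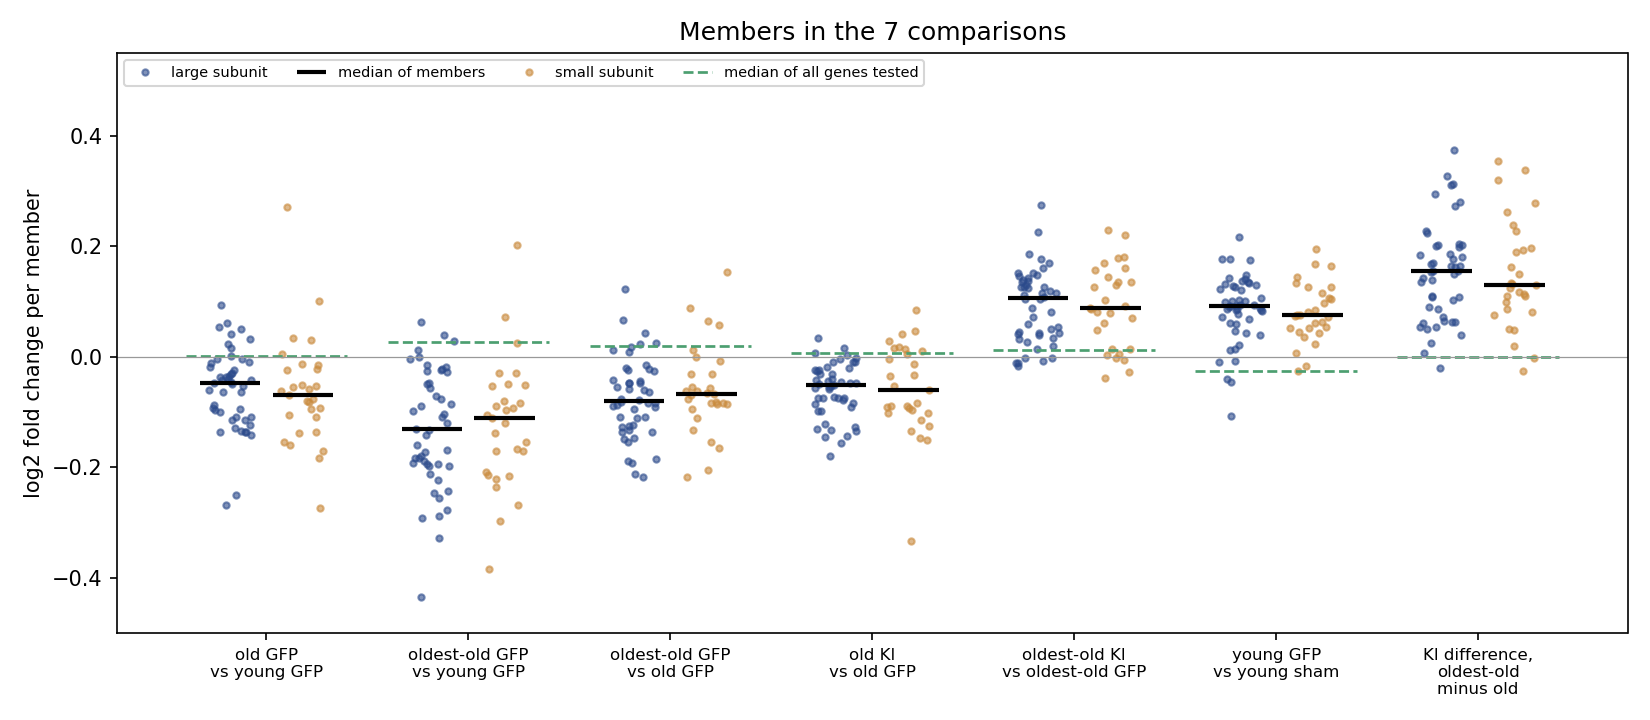
Log2 fold change of each member (points, blue for the large and orange for the small subunit) in 7 comparisons, with the median of each subunit (black line) and of all genes tested (green dashed line). The members' medians lie below 0 in the 3 age comparisons and in old Kl against old GFP, at -0.12 in oldest-old GFP against young GFP, and above 0 in oldest-old Kl, in young GFP against sham and in the difference of Klotho effects.

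**Figure D4:**
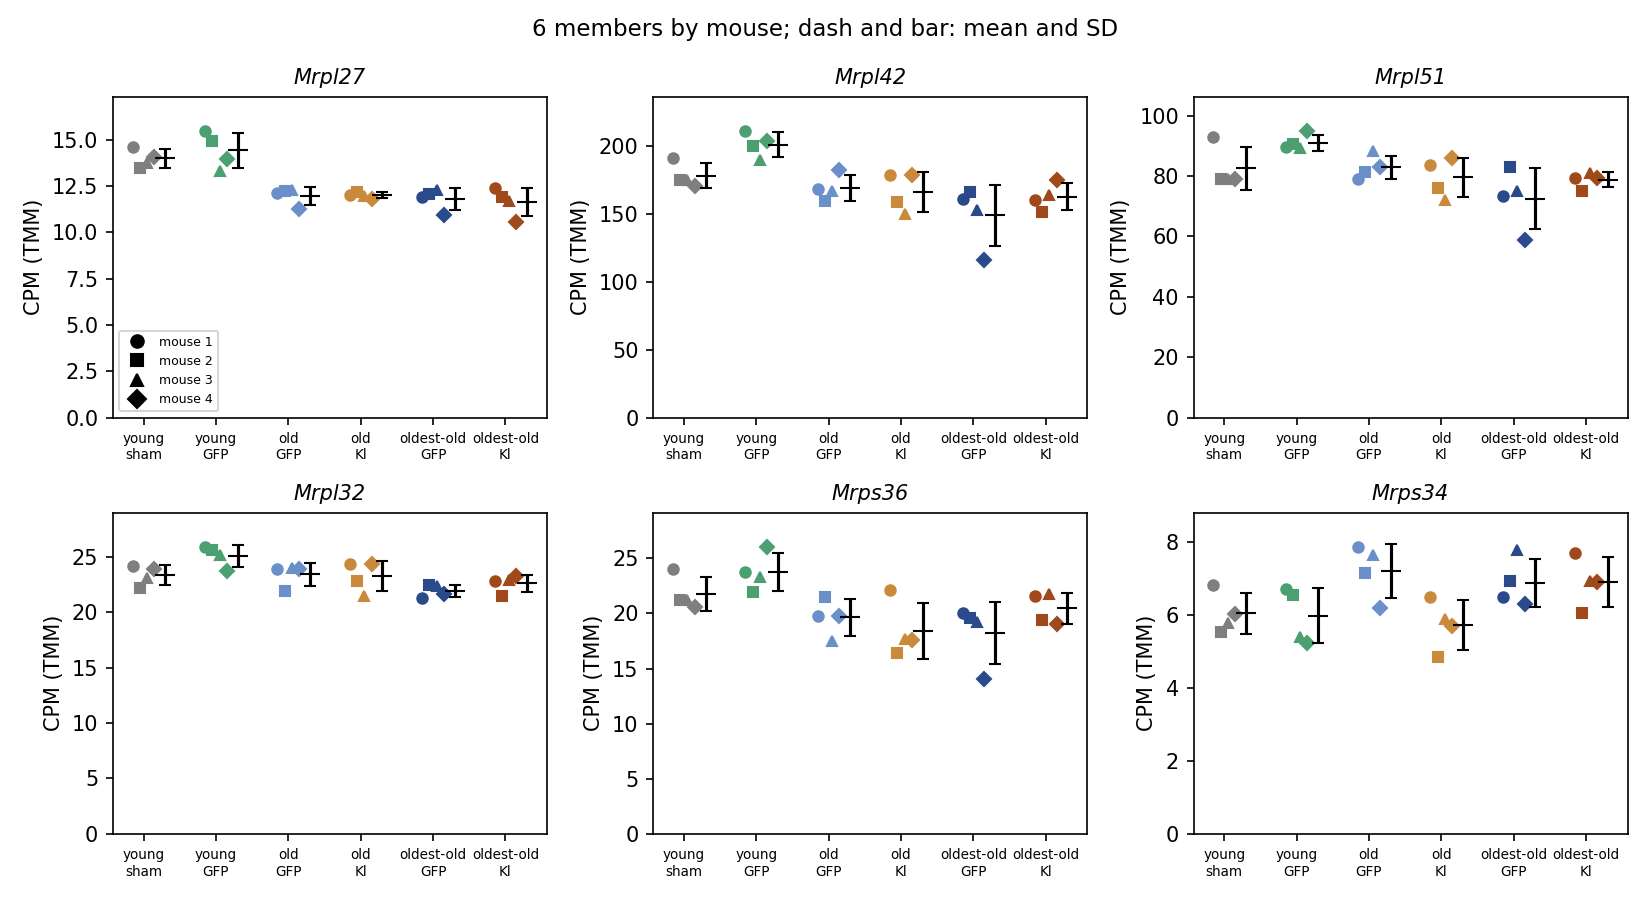
CPM of 6 members for each mouse (symbol) in 6 groups, with the group mean and SD (dash and bar); the axes start at 0. Mrpl27 lies at 12.4 CPM or less in every old and oldest-old mouse and at 13.3 or more in every young mouse, Mrpl42, Mrpl51 and Mrps36 have their lowest value in oldest-old GFP mouse 4, and Mrps34 varies within every group.

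Mrpl27 separated all young from all older mice, whichever vector they had received. The old Kl mice measured 12.03, 12.2, 11.96 and 11.8 CPM and the oldest-old Kl mice 12.4, 11.9, 11.7 and 10.6 CPM. Kl and GFP mice of the same age overlapped.

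Other parts of the mitochondrial translation apparatus were compared between oldest-old and young GFP mice. Of the 2 mitochondrial ribosomal RNAs, both were called lower. mt-Rnr2, the large subunit rRNA, measured 6222, 5290, 5663 and 6355 CPM in young and 4352, 3687, 3651 and 2937 CPM in oldest-old GFP mice (log2 fold change -0.69 ± 0.12, adjusted p = 0.000773, edgeR). mt-Rnr1, the small subunit rRNA, measured 2425, 2115, 2337 and 2522 CPM and 1753, 1318, 1468 and 1224 CPM in the same groups (-0.71 ± 0.13, adjusted p = 0.00185, edgeR). Neither overlapped. Young sham mice lay lower than young GFP mice in mt-Rnr2, at 4239 to 4919 CPM, a difference that was not called (0.37 ± 0.12, adjusted p = 0.180, edgeR). How much rRNA the library preparation kept in each sample was not tested.

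Of 11 mitochondrial translation factors tested, 4 fell and none rose, with a median of -0.17. These were Guf1, a ribosome-associated GTPase, Gfm2 and Gfm1, the elongation factors of recycling and translocation, and Mtif2, an initiation factor, at -0.24, -0.30, -0.29 and -0.25. Of 17 mitochondrial aminoacyl-tRNA synthetases, 1 fell, Lars2 for leucine at -0.25, and the median was -0.14. Of 26 assembly factors, 1 fell, the GTPase Mtg1 at -0.29, and the median was -0.065. The shares called lower in these last 2 lists are below the 6.08% of all genes. None of 5 mitochondrial ribosomal proteins under other symbols was called, and Ptcd3 and Dap3 of the small subunit were at -0.19 and -0.094.

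Of 9 tested genes for the expression of mitochondrial DNA, 3 fell and 1 rose. Over all 17803 genes tested, 6.08% were called lower and 1567 genes were called higher. Those that fell were the helicase Twnk at -0.58, the polymerase subunit Polg at -0.23 and the single-strand binding protein Ssbp1 at -0.20. The accessory polymerase subunit Polg2 rose, at 0.57. Polg2 measured 2.13, 2.34, 2.80 and 1.98 CPM in young GFP and 3.16, 4.198, 2.99 and 3.43 CPM in oldest-old GFP mice. Twnk measured 43.4, 31.4, 37.5 and 38.6 CPM in young GFP, 25.8, 29.2, 25.02 and 21.2 CPM in oldest-old GFP and 25.4, 23.8, 24.7 and 32.8 CPM in young sham mice, so young sham overlapped oldest-old GFP. Young sham mice measured 2.86 to 2.88 CPM of Polg2, below every oldest-old GFP mouse. Twnk overlaps Mrpl43 on the opposite strand, and their reads cannot be fully told apart.

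Among 10 regulators of mitochondrial biogenesis, 1 fell and 1 rose, compared with 6.08% of all genes called lower and 1567 of 17803 called higher. Ppargc1a, the coactivator of many nuclear genes for mitochondria, measured 57.8, 97.5, 146 and 145 CPM in young GFP and 41.8, 38.9, 42.7 and 40.8 CPM in oldest-old GFP mice (-1.44 ± 0.21, adjusted p = 0.00023, edgeR). Young sham mice measured 38.1, 42.3, 54.1 and 59.1 CPM, and the gene was called higher in young GFP than in sham (1.20 ± 0.21, adjusted p = 0.0127, edgeR). Its part in the members' difference was not tested. Myc was at 0.68 (adjusted p = 0.0448, edgeR). Gabpa and Nrf1, whose motifs are in the promoters above, were at -0.02 and 0.06 and were not called. Yy1, whose motif was also counted there, measured 56.9 ± 1.27 CPM (SD, n = 4) in young GFP and 54.4 ± 2.43 CPM in oldest-old GFP mice. The activity of these factors was not measured.

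Compared with other large groups of genes, the members lay between the respiratory chain and the cytosolic ribosome. Of 83 nuclear-encoded respiratory chain subunits, 43 fell in oldest-old GFP against young GFP mice, with a median of -0.23. Of 83 cytosolic ribosomal proteins, 1 fell and 1 rose, with a median of 0.057. In that comparison 6.08% of all genes were called lower and 1567 of 17803 higher. In oldest-old Kl against oldest-old GFP mice the medians were 0.14 for the respiratory chain, 0.10 for the members and 0.011 for the cytosolic ribosome, and none of the 3 groups had a called gene. In young GFP against young sham mice the medians were 0.13 for the respiratory chain, 0.087 for the members and 0.069 for the cytosolic ribosome. No gene of these groups was called there, and the median over all genes was -0.025. Of the respiratory chain subunits, 78 of 83 were higher in young GFP than in young sham mice. The differences between these lists were not tested.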

How the data were processed

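The deposited files hold raw read counts per gene, which the authors made with STAR 2.7.0a on GRCm38 (mm10) from 24 bulk RNA-seq libraries; the annotation release is not given in the sources used here. FastQC and DESeq2 are named in the submitters' processing notes. The unstranded column was used. Gene symbols, positions and exons came from GENCODE M21, which matched 55144 of 55385 gene IDs and all 77 members. Counts were tested with edgeR 4.0.16 (R 4.3.3): TMM scaling, filterByExpr, glmQLFit and glmQLFTest in 1 fit of 6 groups over 24 libraries, with Benjamini-Hochberg adjustment over all 17803 genes tested and a threshold of 0.05. SE is the log2 fold change divided by the root of F. Log2 CPM used a prior count of 2. Reads on genes were 74.7 to 77.0% of all reads per library.

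Alternatives were size factors of DESeq2, DESeq2 1.42.0 itself, no count filter, the second strand column, fewer groups, a replicate block and each library left out. Further ones were chosen after seeing the data. The members and lists were chosen with earlier results of these data known. Named were up to 15 called members per comparison by p, or otherwise the 5 of smallest p, those of the largest difference, the 3 highest and lowest per kilobase in each subunit, those not overlapping in both age comparisons, 10 members fixed by role, and the genes of smallest p in other lists. Gabpa, Nrf1 and Yy1 were named for their motifs. The fit was tested on simulated counts. Promoters came from RefSeq.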

Additional observations from a re-analysis of the deposited data

Results flagged for a closer look

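In groups of 4 mice, 1 mouse stood far from the other 3 in 21 of 270 sets of values examined, where chance gives about 5%. All values are log2 CPM. Oldest-old GFP mouse 4 was lowest in the mean over all members (4.37), the mean over the large subunit (4.52), Mrpl13 (4.53), Mrpl4 (5.25), Mrps15 (5.05) and Mrps36 (3.81). Young sham mouse 1 was highest in Mrpl37 (6.25), Mrpl51 (6.54), Mrpl55 (4.82) and Mrps23 (5.86), and young sham mouse 3 lowest in Mrpl57 (3.99998). Young GFP mouse 2 was lowest in Mrps10 (4.17). In old GFP, mouse 4 was lowest in Mrpl27 (3.50) and Mrps28 (4.63), mouse 2 lowest in Mrpl32 (4.46) and Mrps10 (4.26), and mouse 3 highest in Mrpl36 (4.46). Old Kl mouse 2 was lowest in Mrpl12 (5.59) and Mrpl18 (4.97). Oldest-old Kl mouse 3 was highest in Mrpl37 (6.34), and mouse 4 lowest in Mrpl57 (4.07).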

How the results depend on the processing

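In oldest-old against young GFP mice all 20 called members stayed below 0 under every alternative, and DESeq2 also called each of them. The 20 had been picked from these same libraries, so this is not independent support. The number called was 20, and it was 9 with no filter on low counts, 2 with only the compared groups in the fit, and 8 to 22 with 1 library left out. Over all genes, in either direction, 1755 of 37001 were called with no filter and 1249 of 16067 with only the compared groups. With alternatives chosen after seeing the data, the number of members called was 4 with library size alone and 1 with young sham in place of young GFP. It was 4 without both young GFP libraries of high keratinocyte RNA. The calls over all genes were 3097 of 17803, 2064 of 17803 and 874 of 18620, in that order. The median of -0.12 was -0.025 with library size alone and -0.039 with young sham. Library size alone moved the median of all genes to 0.12, and relative to that median the members stood at -0.15 in both scalings. Other changes moved this relative value. It was -0.027 with young sham and -0.086 without oldest-old GFP mouse 4. Without both young GFP libraries of high keratinocyte RNA it was -0.19. In old against young GFP mice, 1 member was called, and 0 were with counts of 1 strand, library size alone, or without the libraries of high keratinocyte or liver RNA, and 2 with only the compared groups. Its median was 0.013 with young sham. Relative to the median of all genes that was 0.036, compared with -0.056 with young GFP. With library size alone the median was -0.0025 in oldest-old against old GFP mice and 0.0030 in young GFP against sham. No member was called in the Klotho and sham comparisons under any alternative. The cause of these shifts was not tested.

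Same-numbered mice did not deviate together in every pair of any comparison, so the numbers were not taken as pairs. With the replicate block, 19 members were called in oldest-old and 1 in old against young GFP mice, and 0 elsewhere. In simulated counts for 17803 genes in oldest-old against young GFP mice, 11.9% of genes raised by 25% or lowered by the same fold were called. Of those raised by 50% or lowered by the same fold, 41.8% were called. The changed genes were drawn from all genes tested, not from the members, and changes smaller than 25% were not simulated. How many changes of the members' size were missed was therefore not measured.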
